A study of Bos taurus with 11 samples.

Results

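FADS1 (ENSBTAG00000022294) and FADS2 (ENSBTAG00000015505) are the 2 fatty acid desaturase genes described here, of 21996 genes counted in bovine liver. They were taken by identifier. The study had already reported both as lower in SNEB from these same animals, so their tests here are not independent evidence of that difference. Polyadenylated RNA had been sequenced as single reads from the livers of 11 multiparous Holstein-Friesian cows, collected at slaughter about 14 days after calving. The 5 cows in mild negative energy balance (MNEB) were given silage freely with more concentrate and were milked less often, whereas the 6 cows in severe negative energy balance (SNEB) were given restricted feed and were milked more often. Feeding and milking differed together between the groups, so their effects cannot be told apart. Each library came from 1 animal, and the animals had been picked for the extremes of energy balance within their treatment.

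Mammals cannot make linoleic and alpha-linolenic acid, and liver converts these dietary fatty acids to longer, more unsaturated ones. FADS2 introduces a double bond at the first step of this route. Elongation follows, and FADS1 then introduces the next double bond, which gives arachidonic and eicosapentaenoic acid. These products enter membrane phospholipids and are the precursors of eicosanoids, which act in inflammation and reproduction. Both enzymes are membrane proteins of the endoplasmic reticulum and draw electrons through cytochrome b5.

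Reads on genes per cow ranged from 1774011 to 4005322 in MNEB and from 1869837 to 6852142 in SNEB. They came from 19 lanes on 3 flow cells, and MNEB4 and SNEB4 were on a flow cell that held none of the other 9 cows analysed here. Levels are given as CPM, the reads of a gene scaled to a library of 1000000 reads after TMM normalization, and are compared between cows and not between genes because gene lengths were not used. No hepatocyte marker of the fixed list had an identifier here, so 5 genes known for liver expression were picked after their values were seen. Of these, FETUB, SLC2A2, GNMT, HAL and A2M were each counted in every cow, from 43 reads upwards for GNMT and from 1300 reads for A2M. In whole liver tissue, fewer expressing cells and less RNA per cell cannot be told apart.

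FADS2 was lower in all 6 SNEB livers than in any MNEB liver. The MNEB cows, in order of their number, had 936, 1129, 937, 926 and 988 CPM of FADS2. These 5 livers differed by no more than 1.22-fold from lowest to highest. The SNEB cows had 99.4, 245, 137, 178, 530.3 and 135 CPM. SNEB5 stood above the other 5 SNEB cows, and the highest-to-lowest ratio in SNEB was 5.33. Means were 983 ± 85.03 CPM (SD, n = 5) in MNEB and 220.7 ± 159.6 CPM (SD, n = 6) in SNEB, a ratio of 4.46. The log2 fold change of SNEB over MNEB was −2.15 (SE 0.34) with an adjusted p of 0.0129 (edgeR, quasi-likelihood, adjusted by Benjamini-Hochberg). At the same threshold, an adjusted p under 0.1, 0.544% of the 13960 genes tested were called and 0.215% were called lower in SNEB. In 0.537% of these genes the highest SNEB value was below the lowest MNEB value.

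FADS1, the later desaturase of the route, was also lower in all 6 SNEB livers than in any MNEB liver. The MNEB cows, in order, had 50.01, 26.5, 27.8, 25.7 and 39.9 CPM of FADS1. The values of MNEB1 and MNEB5 were above those of the other 3, which were close to each other. The SNEB cows had 5.22, 7.09, 5.90, 7.79, 13.6 and 4.68 CPM, and SNEB5 was again the highest. Means were 34.0 ± 10.7 CPM (SD, n = 5) in MNEB and 7.38 ± 3.25 CPM (SD, n = 6) in SNEB, a ratio of 4.60. The log2 fold change was −2.19 (SE 0.28), with an adjusted p of 0.00538 by the same edgeR test. FADS1 rested on few reads, 47 to 204 per cow in MNEB and 11 to 57 in SNEB, against 1585 to 3911 and 255 to 2224 for FADS2.

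**Figure D1:**
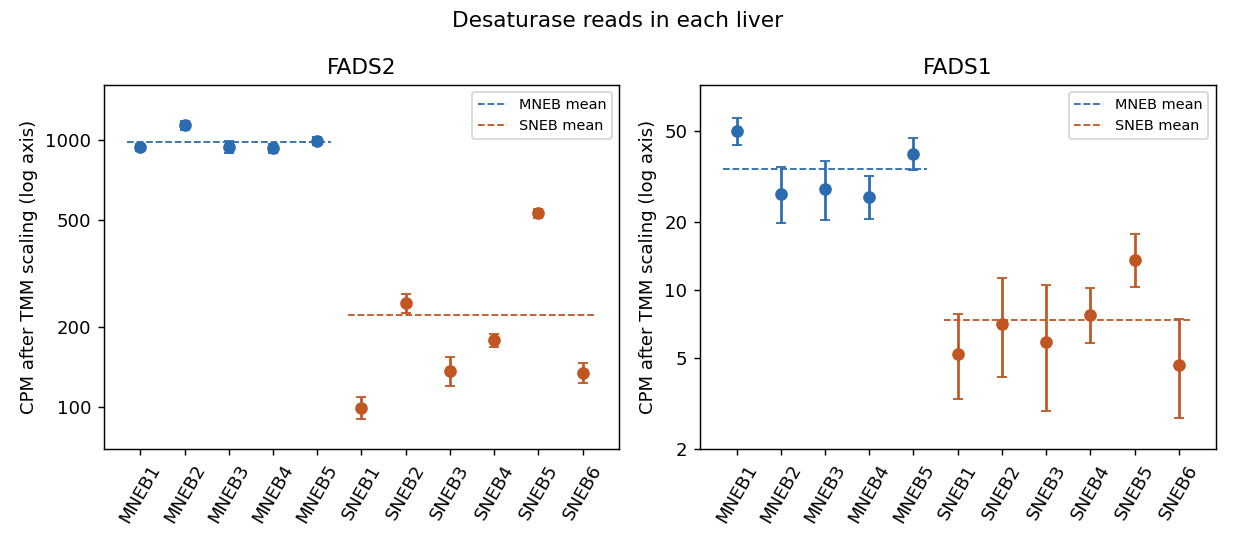
FADS2 (left) and FADS1 (right) in each liver, as CPM after TMM scaling on a log axis. Points are cows, bars are exact 95% Poisson intervals of the reads (counting error only), and dashed lines are group means; the lowest MNEB cow lies above the highest SNEB cow, SNEB5, for both genes.

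The distance between the groups depended on SNEB5. The lowest MNEB cow had 1.75 times the FADS2 and 1.89 times the FADS1 of SNEB5. With SNEB5 left out, the lowest MNEB cow had 3.78 times the FADS2 and 3.29 times the FADS1 of the next highest SNEB cow. SNEB5 itself was 2.16-fold above that next cow for FADS2 and 1.74-fold above it for FADS1. Without SNEB5, the SNEB mean was 159 ± 55.6 CPM for FADS2 and 6.14 ± 1.29 CPM for FADS1 (SD). Both genes were called with any 1 cow left out.

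The spread between cows differed by gene and by group. In MNEB the coefficient of variation was 8.65% for FADS2 and 31.4% for FADS1. In SNEB it was 72.3% for FADS2, which became 35.04% without SNEB5, and 44.1% for FADS1, which became 21.0% without SNEB5. Counting reads alone gives a coefficient of variation of 1.599% to 2.51% for FADS2 in MNEB and 2.12% to 6.26% in SNEB. Lanes of a single library also differed by more than counting error, in 25.2% to 39.9% of genes, so counting error is not the whole technical spread. The lanes of MNEB4 differed 1.48-fold in FADS2, more than the 1.22-fold between the MNEB cows. The authors kept 1 read per position, and the part of that step in the narrow FADS2 spread of MNEB was not tested. For FADS1 counting alone gives 7.001% to 14.6% in MNEB and 13.2% to 30.2% in SNEB. The exact 95% Poisson intervals of FADS1 overlapped among SNEB1, SNEB2, SNEB3, SNEB4 and SNEB6, whose order could not be resolved at this depth. The interval of SNEB5, 10.3 to 17.6 CPM, lay above that of SNEB4, 5.85 to 10.2 CPM, but overlapped those of SNEB2, which reached 11.4 CPM, and SNEB3, which reached 10.6 CPM. In MNEB the interval of MNEB1, 43.4 to 57.4 CPM, lay above those of MNEB2, MNEB3 and MNEB4, while the interval of MNEB5, 33.9 to 46.7 CPM, overlapped those of MNEB1, MNEB2, at 19.7 to 34.8 CPM, and MNEB3, at 20.4 to 36.9 CPM. For FADS2 the intervals of SNEB3, 121 to 155 CPM, and SNEB6, 123 to 147 CPM, overlapped, so these cows were not separated by counting error.

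The higher FADS1 of MNEB1 and MNEB5 came with more reads of cell-cycle genes. Of the 8 proliferation markers, 6 had an identifier, and their summed CPM was 573 in MNEB1 and 365 in MNEB5 against 61.8 to 134 in the other MNEB cows. MKI67, a marker of cycling cells, had 224 and 138 CPM in these 2 cows and 22.9 to 34.3 CPM in the other 3. In SNEB, SNEB2 had the highest sum, 474 CPM, and its FADS1 was 7.09 CPM. None of the 6 markers was called between the groups, and the part of these cells in the FADS1 level was not tested.

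The balance of the 2 genes was asked next, as a share of reads, which needs no scaling by library size. FADS1 made up 5.07%, 2.29%, 2.88%, 2.70% and 3.88% of FADS1 plus FADS2 reads in the MNEB cows in order. In the SNEB cows it made up 4.99%, 2.81%, 4.14%, 4.19%, 2.50% and 3.36%. The ranges of the groups overlapped almost fully. Means were 3.36% ± 1.12 (SD, n = 5) and 3.67% ± 0.941 (SD, n = 6), with a difference of 0.300 percentage points (two-sided exact permutation test, p = 0.626). Inverting that test gave a 95% interval of −1.13 to 1.72 percentage points for the difference. The log2 ratio of FADS2 to FADS1 reads averaged 4.89 in MNEB and 4.72 in SNEB, a difference of −0.17 (exact permutation p = 0.515). The differences in this interval were not rejected by the test. The spans of the 2 genes overlap in a later assembly, and the part of reads uncertain between them in this share was not tested. In MNEB4 FADS1 made up 3.27% of these reads in the deeper lane (exact 95% binomial interval 2.49 to 4.22) and 2.001% in the shallower lane (1.34 to 2.86). These intervals overlapped. The share was also larger in the deeper lane of MNEB5 and SNEB6, but smaller in the deeper lane of MNEB1, SNEB1 and SNEB5. The part of lane depth in the shares of the cows was not tested.

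Among the SNEB cows the 2 desaturases varied together, but the relation leaned on SNEB5. Across the 6 SNEB cows, Pearson's r of log2(CPM + 1) was 0.937 (exact permutation p = 0.0125 over 720 pairings) and Spearman's rho was 0.886 (exact permutation p = 0.0333). No other relation across cows was tested, so these values carry no adjustment. Because the spans of the 2 genes overlap, some reads are uncertain between them, and their part in this relation was not tested. Without SNEB2 and SNEB5, the 2 cows farthest from the median of FADS2, r was 0.736 with n = 4 (exact permutation p = 0.292). Without SNEB5 alone r was 0.745 with n = 5 and rho was 0.8 (exact permutation p = 0.142 for r and 0.133 for rho), so without that cow the relation was weaker and did not pass the test. The groups formed separate clusters, and no r over all 11 cows is given as a relation. In MNEB, with 5 cows, the cow with the most FADS2, MNEB2 at 1129 CPM, had 26.5 CPM of FADS1, near the lowest, and MNEB1, with the most FADS1, had 936 CPM of FADS2.

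**Figure D2:**
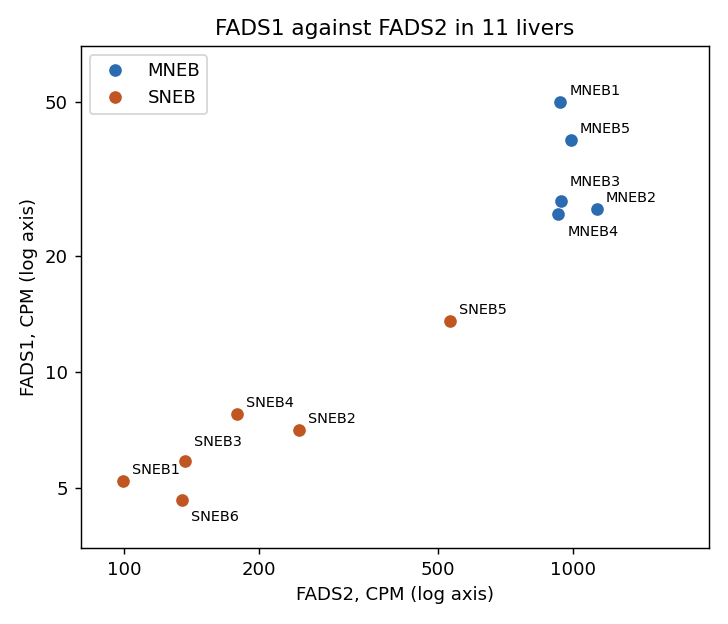
FADS1 against FADS2 in the 11 livers, as CPM after TMM scaling with both axes logarithmic and each point 1 cow. The SNEB cows lie at the lower left with SNEB5 nearest to the MNEB cows, which spread along FADS1 within a narrow range of FADS2.

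SNEB5 was also compared with the other SNEB cows over the genes called with it left out, on a log2 scale where 0 is the mean of the other SNEB cows and 1 is the MNEB mean. On this scale FADS2 of SNEB5 was at 0.67 and FADS1 at 0.46, both nearer to the MNEB mean than in any other SNEB cow. The median over the 76 genes called without SNEB5 was 0.15, and 18 of them were past 0.5. Every SNEB cow had a median above 0, such as 0.16 in SNEB1 and 0.04 in SNEB2, so that of SNEB5 was not particular to it. SNEB3 had the largest median, 0.42 over the 120 genes called without it, with 52 of them past 0.5. Its FADS1 was at −0.12 and its FADS2 at −0.23, below the mean of the other SNEB cows. The cow in which the desaturases lay nearest to MNEB was therefore not the cow with the largest median. These medians were taken over different genes in each cow, which limits their ranking. The genes were called between MNEB and the other SNEB cows, so this choice by itself favours a median above 0 in the left-out cow.

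**Figure D3:**
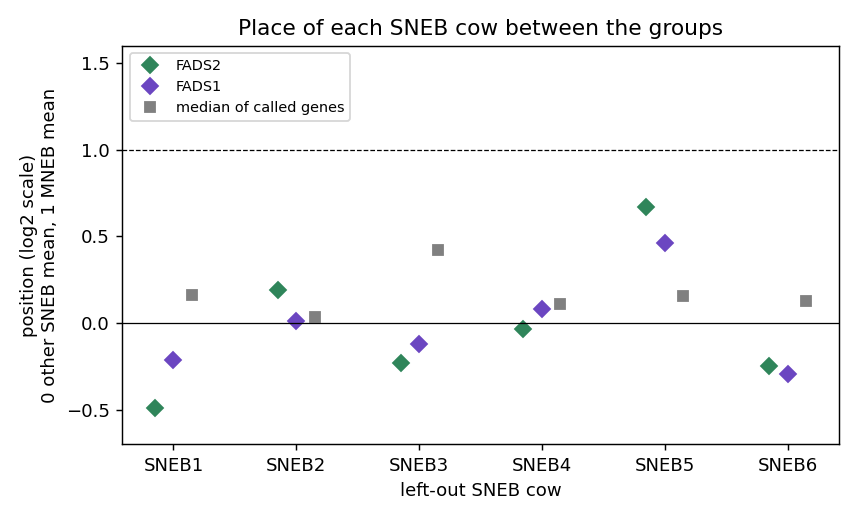
Place of each SNEB cow between the groups when that cow is left out (log2 scale; 0 is the mean of the other SNEB cows and the dashed line at 1 is the MNEB mean). Diamonds are FADS2 and FADS1 and squares are the median over the genes called without the cow; SNEB5 has the highest diamonds, at 0.67 and 0.46, and SNEB3 the highest square, at 0.42.

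Of the 11 cows, 7 had been run on more than 1 lane, which gave repeat counts of the same library. Here CPM is scaled to the total of the lane, with no TMM normalization. The lanes of SNEB5 had 509 and 560 CPM of FADS2 (exact binomial p = 0.0271) and 12.7 and 14.9 CPM of FADS1, so both of its lanes stood above those of all other SNEB cows for both genes. The 3 lanes of SNEB4 had 172 to 189 CPM of FADS2 and 7.80 to 8.03 CPM of FADS1. FADS2 differed between lanes beyond counting error in SNEB6, with 97.7 and 157 CPM (exact binomial p = 4.00e-07), as did 37.3% of 10676 genes compared between these lanes. Both of these values were inside the range of the other SNEB lanes.

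The smallest p between lanes of one library was that of FADS2 in MNEB4. Its lanes held 2147404 and 1221833 reads on genes, a ratio of 1.76. FADS2 had 1684 and 1420 reads, a ratio of 1.19, which is 784 and 1162 CPM (exact binomial p = 2.64e-27). FADS1 had 57 and 29 reads, a ratio of 1.97, which is 26.5 and 23.7 CPM (exact binomial p = 0.655). Over all genes the median of this ratio was smaller in each class of more reads up to 2000 reads per lane, and was 1.36 above that. Its median was 2.26 over the 2196 genes with a mean of 20 to 50 reads per lane, the class of FADS1. It was 1.35 (quartiles 1.20 to 1.57) over the 194 genes with 1000 to 2000 reads per lane, the class of FADS2. The authors had kept 1 read per alignment position, and the part of that step in these ratios and in the contrast of the groups was not tested. FADS2 had 1585 reads or more in each MNEB cow and FADS1 had 204 or fewer, and their mean ratios of MNEB to SNEB were 4.46 and 4.60. These ratios are not a test of that step, and FADS1 rested on 11 to 57 reads per SNEB cow.

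**Figure D4:**
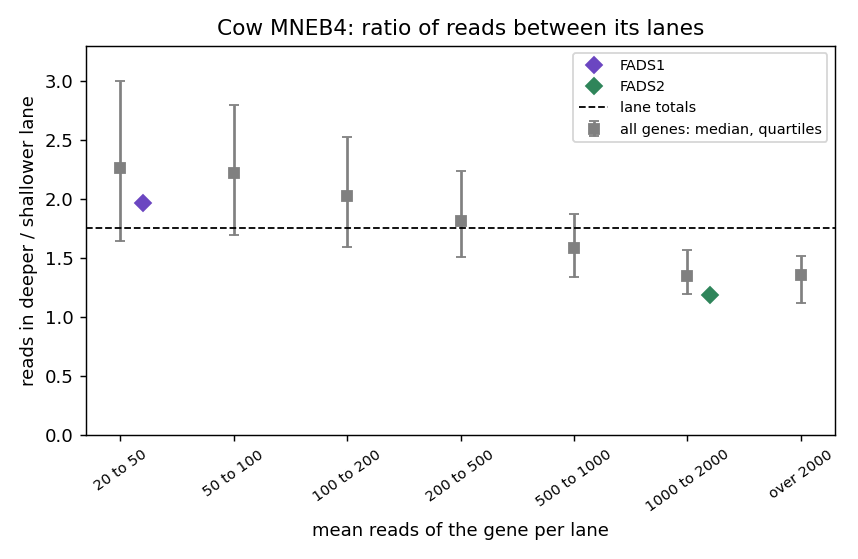
Reads in the deeper lane over reads in the shallower lane of cow MNEB4, for all genes by mean reads per lane (squares: median; bars: quartiles) and for FADS1 and FADS2 (diamonds, drawn beside their class). The dashed line is the ratio of lane totals, 1.76; FADS1 lies at 1.97 and FADS2 at 1.19, and the medians fall from 2.26 to 1.36.

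Of 11846 genes with a mean of at least 10 reads per cow, FADS1 and FADS2 were each the gene most like the other by Pearson's r of log2(CPM + 1) over the 11 cows, with r = 0.952. This measure counts the difference between the groups. On deviations from the group means, r was 0.720 and each was at rank 77 for the other. After FADS1, the named gene most like FADS2 was PKLR, liver pyruvate kinase, a glycolytic enzyme, with r = 0.922 and 0.664 on deviations. PKLR had 316 ± 36.7 CPM in MNEB and 193 ± 36.1 CPM in SNEB (SD), and changed by −0.71 on the log2 scale (SE 0.13, adjusted p = 0.0407 by edgeR). For FADS1 it was SERPINA6, which encodes the corticosteroid-binding globulin of plasma, with r = 0.922 and 0.480 on deviations. SERPINA6 had 199.99 ± 37.6 CPM in MNEB and 35.9 ± 16.9 CPM in SNEB (SD), and changed by −2.50 on the log2 scale (SE 0.30, adjusted p = 0.00538 by edgeR). The other genes of the 5 most like each desaturase had no symbol here, and ENSBTAG00000039852 was in both lists, at r = 0.921 with FADS1 and 0.914 with FADS2.

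Symbols could be joined to identifiers only through the list of genes that the study reported as differentially expressed in these samples. Counts over the pathway lists are therefore not independent evidence of a direction, or of an excess over the share of all genes. Of the 33 genes of long-chain polyunsaturated fatty acid synthesis, 5 had an identifier. FADS1 and FADS2 fell, none rose, and 3 were not called. The median log2 fold change of the 5 was 0.88, beside −0.01 over all genes tested, so the median had the opposite sign to the called members. MFSD2A, a transporter of lysophospholipids that carry docosahexaenoic acid, had 106 ± 59.3 CPM in MNEB and 196 ± 66.4 CPM in SNEB (log2 fold change 0.88, SE 0.34, adjusted p = 0.445 by edgeR). HACD4, of the family of dehydratases of the elongation cycle, and CYB5R2, of the cytochrome b5 reductase family, are outside the naming rule and complete the list. HACD4 had 1.67 ± 0.886 CPM in MNEB and 5.70 ± 2.53 CPM in SNEB (adjusted p = 0.169 by edgeR). CYB5R2 had 11.7 ± 10.3 CPM and 24.2 ± 18.2 CPM (adjusted p = 0.776 by edgeR).

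Of the 24 genes of lipogenesis and its regulators, 5 had an identifier and none was called by edgeR. At an unadjusted p under 0.05 there were 4, where 8.35% of all genes tested passed. DESeq2 called 3, where it called 2.21% of the genes to which it gave an adjusted p. The genes with an identifier came through the study's list of differential genes, so neither count can show an excess over all genes. The median log2 fold change was −0.86. ACACA, which encodes acetyl-CoA carboxylase alpha, the enzyme that makes malonyl-CoA for fatty acid synthesis and elongation, had 92.7, 168, 117, 94.6 and 132 CPM in the MNEB cows in order. In the SNEB cows it had 90.8, 46.7, 75.6, 89.4, 53.6 and 41.02 CPM. The groups did not overlap, as in 0.537% of all genes tested with SNEB below MNEB, but the nearest cows, at 92.7 and 90.8 CPM, were close. The log2 fold change was −0.86 (SE 0.23), with an adjusted p of 0.182 by edgeR and 0.0349 by DESeq2. In SNEB5, ACACA was not raised with the desaturases but lay among the other SNEB cows. IRS1, an adaptor of the insulin receptor, had 294 ± 57.6 CPM in MNEB and 176 ± 58.1 CPM in SNEB (adjusted p = 0.253 by edgeR). LPIN1, a phosphatidate phosphatase, had 351 ± 185 CPM and 185 ± 97.6 CPM (adjusted p = 0.651 by edgeR). LPIN1 was 349.5 CPM in SNEB5 against 93.3 to 224 CPM in the other SNEB cows. In MNEB4 it was 41.5 CPM against 349 to 498 CPM in the other MNEB cows. IRS1 of SNEB5, at 232 CPM, lay within the range of the other SNEB cows. THRSP, a lipogenic protein of liver named here outside the rule, had 7.09 to 30.9 CPM in MNEB. In SNEB it had 1.07 to 4.59 CPM in 5 cows and 24.6 CPM in SNEB5. Its log2 fold change was −1.47 (adjusted p = 0.581 by edgeR) with SNEB5 and −2.78 (adjusted p = 0.0258 by edgeR) without it. ACACB, the carboxylase isoform whose malonyl-CoA restrains fatty acid oxidation, was also outside the rule, with 4.48 to 15.6 CPM in MNEB and 3.81 to 68.1 CPM in SNEB, the lowest SNEB value being that of SNEB5 (adjusted p = 0.320 by edgeR).

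Of the 28 genes of PPARA signalling and fatty acid oxidation, 8 had an identifier. RXRG, ANGPTL4 and FGF21 rose in SNEB, none fell and 5 were not called, where 0.33% of all genes tested were called higher. These members also came through the study's list, so their count cannot show an excess over all genes. The median log2 fold change of the 8 was 0.94. FGF21, a hepatic hormone of fasting, had 92.9, 51.4, 63.3, 40.6 and 87.4 CPM in the MNEB cows in order and 183, 189.8, 183, 148, 164 and 136 CPM in the SNEB cows. FGF21 changed by 1.31 on the log2 scale (SE 0.20, adjusted p = 0.00953 by edgeR). ANGPTL4, an inhibitor of lipoprotein lipase, rose from 204 ± 115 CPM to 529 ± 66.7 CPM (log2 fold change 1.38, SE 0.27, adjusted p = 0.0456 by edgeR). RXRG, a retinoid X receptor, rose from 49.95 ± 23.9 CPM to 141 ± 29.0 CPM (log2 fold change 1.49, SE 0.27, adjusted p = 0.0326 by edgeR). The ANGPTL4 call was lost without MNEB4, MNEB5 or SNEB6, at adjusted p = 0.132, 0.147 and 0.107 by edgeR, and without MNEB4 and SNEB4 together, at 0.216, and the RXRG call without MNEB5, at 0.113. PLIN2, a lipid droplet coat protein, had 188 ± 71.1 CPM in MNEB and 321 ± 45.7 CPM in SNEB (adjusted p = 0.151 by edgeR). CREB3L3, a liver transcription factor of fasting, had 439 ± 98.0 CPM and 643 ± 53.3 CPM (adjusted p = 0.105 by edgeR). In SNEB5, where the desaturases were highest among SNEB cows, FGF21 at 164 CPM, ANGPTL4 at 547 CPM and RXRG at 138 CPM lay within the range of the other SNEB cows. PPARGC1A at 301 CPM and PDK4 at 283 CPM were the highest of the SNEB cows there and PLIN2 at 257 CPM the lowest, and PPARGC1A and PDK4 are named outside the rule.

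**Figure D5:**
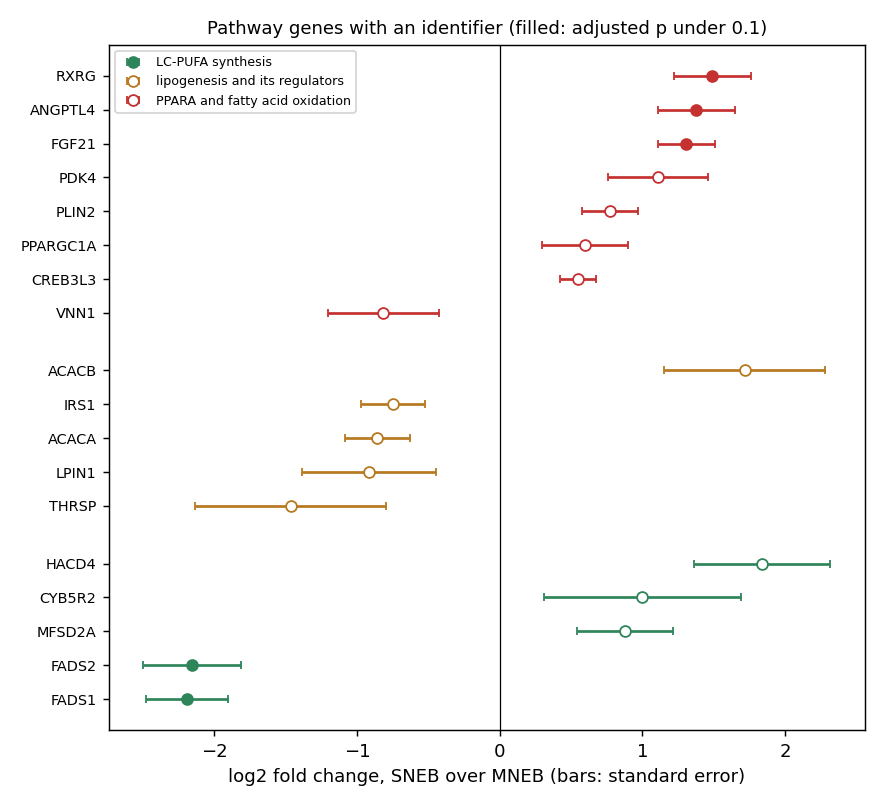
Log2 fold change of SNEB over MNEB with its standard error (bars) for the pathway genes that had an identifier, coloured by list and filled where edgeR's adjusted p was under 0.1. FADS1 and FADS2 lie at −2.19 and −2.15, below every other gene drawn, while RXRG, ANGPTL4 and FGF21 are filled on the higher side at 1.31 to 1.49.

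Markers of other cells were set beside these levels as far as they had identifiers. The Kupffer cell genes MARCO and TIMD4, 2 of 11 in their list, summed to 125 to 277 CPM in MNEB and 75.6 to 255 CPM in SNEB. S100A12, the 1 leukocyte gene of 10, had 10.8 to 36.9 CPM in MNEB and 21.2 to 65.5 CPM in SNEB. Proliferation genes summed to 61.8 to 573 CPM in MNEB and 44.1 to 474 CPM in SNEB. The ranges overlapped and none of these markers was called, and their part in the desaturase levels was not tested. No gene of the endothelial, cholangiocyte, stellate, erythroid or adipocyte lists had an identifier here, nor any gene of the eicosanoid list or of the genes beside the desaturases. In the RefSeq order of the ARS-UCD2.0 assembly, which is not the assembly of the counts, FADS1 lies between FEN1 and FADS2 and its span overlaps that of FADS2. Whether the counting used strand was not given in the sources used here, so reads of the overlapping part are uncertain between the 2 genes.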

How the data were processed

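Counts of FADS1, FADS2 and all other genes were analysed in 11 livers. For each lane, the authors mapped single reads with Bowtie on assembly BCM4. They discarded reads that aligned at several places and all but 1 read at a position. HTSeq-count (union) then assigned the remainder to Ensembl genes, and the submitters' processing notes also name CASAVA 1.4 and SAMtools. The deposited values are raw counts with no normalization. Keeping 1 read per position can hold down the count of an abundant gene.

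Lanes of a cow were summed, and cows were grouped by sample title. Genes that reached 5 reads in 1 or more cows, 13960 in all, were tested by edgeR 4.0.16 in R 4.3.3 (TMM, quasi-likelihood test, Benjamini-Hochberg adjustment over all genes tested, called at an adjusted p under 0.1). Standard errors (SE) were taken as the absolute log2 fold change over the root of the F statistic. Exact permutation tests over cows were two-sided, with scipy 1.17.1 in Python 3.11.15, and intervals of reads (95%, exact Poisson) cover counting error only. DESeq2 1.42.0, limma 3.58.1 (voom), other filters and scalings, 1 lane per cow, thinned counts, flow cells B and C only (MNEB4 and SNEB4, run on A, left out), and leaving out each cow were alternatives. The edgeR step was tested on simulated data with 200 changed genes.

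No pair of libraries of the same group agreed within sampling noise, and pairs across the groups were not compared. The members, gene lists and tests were chosen with earlier results of these data known. Named genes are, for each list, the members called by edgeR and the 3 with the largest mean CPM, plus the 5 genes most like each desaturase; genes outside this rule are marked as such. Symbols came from the gene names that the study pairs with identifiers. Plots were drawn with matplotlib 3.10.9. A further gene list is not reported here.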

Additional observations from a re-analysis of the deposited data

Results flagged for a closer look

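On the CPM scale, SNEB5 stood apart from the other SNEB cows for both desaturases and for 1 lipogenic gene. Its FADS2, 530.3 CPM, and its FADS1, 13.6 CPM, lay above the next SNEB cow by 0.662 and 0.651 of the range of the group, where 0.625 is the 95% limit of Dixon's test for 6 samples. Its THRSP, 24.6 CPM, lay above the next by 0.850 of the range. In MNEB, PPARGC1A, a coactivator of genes of oxidation and glucose production, had 239 CPM in MNEB3, with a gap of 0.831 of the range against a limit of 0.71 for 5 samples. Of 38 groups examined 4 passed the limit, and chance passes about 1 in 20. These gaps were taken on CPM without logarithms, where the gap above a high value is a larger part of the range. In SNEB, the step from SNEB5 to the next cow was 2.16-fold within a 5.33-fold range for FADS2. For FADS1 it was 1.74-fold within a 2.90-fold range, and for THRSP it was from 24.6 to 4.59 CPM with a lowest value of 1.07 CPM. On a log scale these gaps are under 0.625 of the range, so SNEB5 passed the limit for these genes on the CPM scale only.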

How the results depend on the processing

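FADS1 and FADS2 kept their direction and their call under all 9 alternative settings and with any 1 cow left out. FADS1 lay between −2.29 and −2.10 on the log2 scale over the settings and between −2.46 and −2.004 with 1 cow left out. FADS2 lay between −2.38 and −2.12 and between −2.63 and −1.998, with its largest adjusted p, 0.0866 by edgeR, on flow cells B and C only. The number of genes called, 76, became 290 with DESeq2 and 34 on flow cells B and C only, and ranged from 40 to 125 with 1 cow left out (125 without MNEB1, 50 without MNEB3, 40 without MNEB5 and 120 without SNEB3). DESeq2 called 3 lipogenesis genes and 6 genes of PPARA signalling and oxidation, and on flow cells B and C only 2 of the latter were called. The relation of FADS1 with FADS2 across SNEB cows ranged from r = 0.745, without SNEB5, to 0.959 with 1 cow left out. The difference in the share of FADS1 reads ranged from 0.0323 to 0.727 percentage points with 1 cow left out. Of 318 values over 16 other pathway genes, 294 kept direction and side of the threshold, 19 passed the threshold, 5 lost it and none turned. The cause of each change was not tested.

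The cows share replicate numbers across groups. Deviations from the group means correlated at 0.283, 0.00675, 0.354, 0.0259 and −0.0551 for the 5 numbers. Of the MNEB cows, 1 of 5 correlated best with the SNEB cow of its own number. In the other direction, 2 SNEB cows correlated best with the MNEB cow of their own number. The numbers were not taken to pair the animals. Cows of the same number had been run on the same flow cells, so a block by number is also in part a block by flow cell. With the replicate number as a block, FADS1 changed by −2.10 (adjusted p = 0.0409 by edgeR) and FADS2 by −2.30 (adjusted p = 0.0409 by edgeR), and 80 genes were called. SNEB6, with no MNEB cow of its number, adds nothing to the contrast in that fit. Among the 16 other pathway genes the block changed 1 call, that of HACD4, at 2.10 (adjusted p = 0.0755 by edgeR).

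FADS1 rested on 11 to 57 reads per SNEB cow, which limits its order among them. Most members of the pathway and marker lists had no identifier here, so those lists are known in part.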
